A study of Arabidopsis thaliana with 10 samples.

Results

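Triploid seeds that received the *adm-2* mutation from the father were compared with triploid seeds from *osd1* pollen that carried no such mutation. A gene was included where its mean over the 4 libraries of these crosses was at least 1 RPKM (reads scaled by gene length and by the reads of the library), which held for 18469 of the 33602 genes in the table (55.0%). The tested seeds came from wild-type L*er* mothers pollinated with *osd1* plants that also carried the mutation labelled adm, the allele *adm-2* of *ADMETOS* (*ADM*) in the study. Their reference was seeds of L*er* mothers pollinated with *osd1*. *osd1* plants skip the second meiotic division and make unreduced pollen, so the seeds of both crosses have an extra paternal genome, and both carry the *osd1* mutation on the paternal side. The *osd1* line had been crossed into Col from the Nossen accession.

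Libraries were made from seeds of 20 siliques harvested at 6 days after pollination (DAP), with 2 libraries per group. Triploid seeds with paternal *suvh7-1* (3n *suvh7-1*) or *peg2* (3n *peg2*), each also in *osd1*, and diploid seeds from L*er* mothers pollinated with Col (2n) served for context. The sources do not say that the libraries of a group came from separate plants, so p-values describe the spread between these libraries only. Seeds hold embryo, endosperm and seed coat in one RNA pool, in which fewer cells of a type and less RNA per cell cannot be told apart.

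In the endosperm of flowering plants nuclei first divide without walls, and cell walls form later, a step called cellularization. With an extra paternal genome *Arabidopsis* endosperm cellularizes late or not at all, the embryo stops growing and the seed aborts, a barrier known as the triploid block. Paternally expressed genes (*PEGs*), imprinted genes read mainly from the paternal allele in endosperm, rise in such seeds, and *ADM* is one of them. Embryo and endosperm that do progress switch on the maturation programme, in which B3 and bZIP transcription factors activate genes for storage proteins and oil bodies, often through the RY element in their promoters.

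Summed over genes the libraries came to between 700509 and 743974 RPKM, and 24106 to 25085 genes were above 0. The steps between low values gave implied depths of 60.15 and 58.48 M reads for 3n *adm-2*, 53.58 and 65.3 M reads for 3n, and 53.58 to 70.74 M reads over all 10 libraries. Across the 18469 genes the replicates of 3n *adm-2* had a Pearson's r of 0.996 and those of 3n of 0.989, and libraries of different groups had 0.965 to 0.974. These correlations are across genes, which are not independent replicates. The median gap between replicates was 0.08 on the log2 scale in 3n *adm-2* and 0.18 in 3n, and replicates lay more than 2-fold apart for 21 genes in 3n *adm-2* and 170 in 3n.

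*ADM* itself (AT4G11940, chr4:7168173-7168967 in TAIR10.1, 1 exon, annotated as an uncharacterized protein) was measured first. It had 0.251 and 0.237 RPKM in 3n *adm-2* seeds, against 2.42 and 4.01 RPKM in 3n seeds and 0.0356 and 0.212 RPKM in 2n seeds. The groups of 3n *adm-2* and 3n did not overlap, and *ADM* fell by 3.23 on the log2(RPKM + 0.1) scale (SE 0.39, limma, adjusted p = 0.00416). In reads implied by the depth, 23 in 3n *adm-2* stood against 311 in 3n, a ratio of 0.0741 (exact 95% interval 0.0463 to 0.113, counting error only). The call was lost without replicate 1 of 3n *adm-2*, and over the 4 fits that each left out a library the difference ran from -3.58 to -2.87. *ADM* was also below 3n in 3n *suvh7-1*, with 0.758 and 0.706 RPKM, whereas 3n *peg2* had 2.82 and 2.23 RPKM.

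*OSD1* (AT3G57860, chr3:21426285-21428340), whose product holds back the anaphase-promoting complex in meiosis, is mutated in the pollen of both crosses. It had 3.35 and 2.94 RPKM in 3n *adm-2*, against 1.91 and 1.38 RPKM in 3n and 8.83 and 7.02 RPKM in 2n, so its level was below 2n in each of the 4 triploid libraries named. The difference between 3n *adm-2* and 3n was 0.91 (SE 0.29, adjusted p = 0.0885). *SUVH7*, a *PEG* that encodes a putative SET-domain histone methyltransferase, had 3.19 and 3.17 RPKM in 3n *adm-2*, against 3.09 and 3.15 RPKM in 3n, with a difference of 0.02 (SE 0.21, adjusted p = 0.97).

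Of the 16 *PEGs* named in the study's text, 14 were among the 18469 genes, and 4 of them fell in 3n *adm-2*, *ADM* included, while 0 rose. The study picked them as imprinted genes and describes a subset as raised in triploid seeds, so their direction is not independent evidence. Over all 18469 genes 108 were called lower, 0.585%, and 414 were called higher, 2.24%, where called means an adjusted p under 0.05 and a log2 difference past 1. The median difference of the 14 was -0.44, beside 0.10 over all genes, and 10 of the 14 had a negative difference.

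*PEG2* had 1.34 and 0.908 RPKM in 3n *adm-2*, against 3.54 and 4.10 RPKM in 3n. It fell by 1.7 (SE 0.32, adjusted p = 0.0186) and remained above 2n, where it had 0 and 0.0151 RPKM. *HDG10*, a homeodomain transcription factor gene, had 1.84 and 2.20 RPKM in 3n *adm-2*, against 4.42 and 5.06 RPKM in 3n, and fell by 1.2 (SE 0.19, adjusted p = 0.0108). *YUC10*, which encodes a flavin monooxygenase of auxin synthesis, had 6.25 and 5.08 RPKM in 3n *adm-2*, against 11.2 and 12.8 RPKM in 3n, and fell by 1.07 (SE 0.14, adjusted p = 0.00504). In each of these genes the 2n libraries lay lowest of the 3 groups, and 3n *adm-2* lay between 2n and 3n. The calls rested on single libraries: that of *PEG2* was lost without any one of the 4, that of *HDG10* without either library of 3n *adm-2*, and that of *YUC10* without replicate 2 of either group. Their differences without one library ran from -1.96 to -1.44 for *PEG2*, from -1.32 to -1.07 for *HDG10* and from -1.22 to -0.93 for *YUC10*.

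The other *PEGs* did not pass the test. *PEG9* (-1.15, adjusted p = 0.072) and *PEG4* (-1.29, adjusted p = 0.103) averaged under 1 RPKM and are the 2 genes of the 16 left out of the 14. *PEG7*, a protein kinase gene, had 5.45 and 5.59 RPKM in 3n *adm-2*, against 7.34 and 8.97 RPKM in 3n (-0.55, adjusted p = 0.159). *PKR2*, a chromatin remodelling factor related to PICKLE, had 17.9 and 16.2 RPKM, against 14.2 and 16.5 RPKM in 3n (0.15, adjusted p = 0.465), and *VIM5*, a RING finger gene of the DNA methylation pathway, had 27.9 and 27.4 RPKM, against 23.6 and 24.6 RPKM in 3n (0.20, adjusted p = 0.195). The highest-level members of the set, *VIM5* and *PKR2*, were thus not among those that fell.

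**Figure D1:**
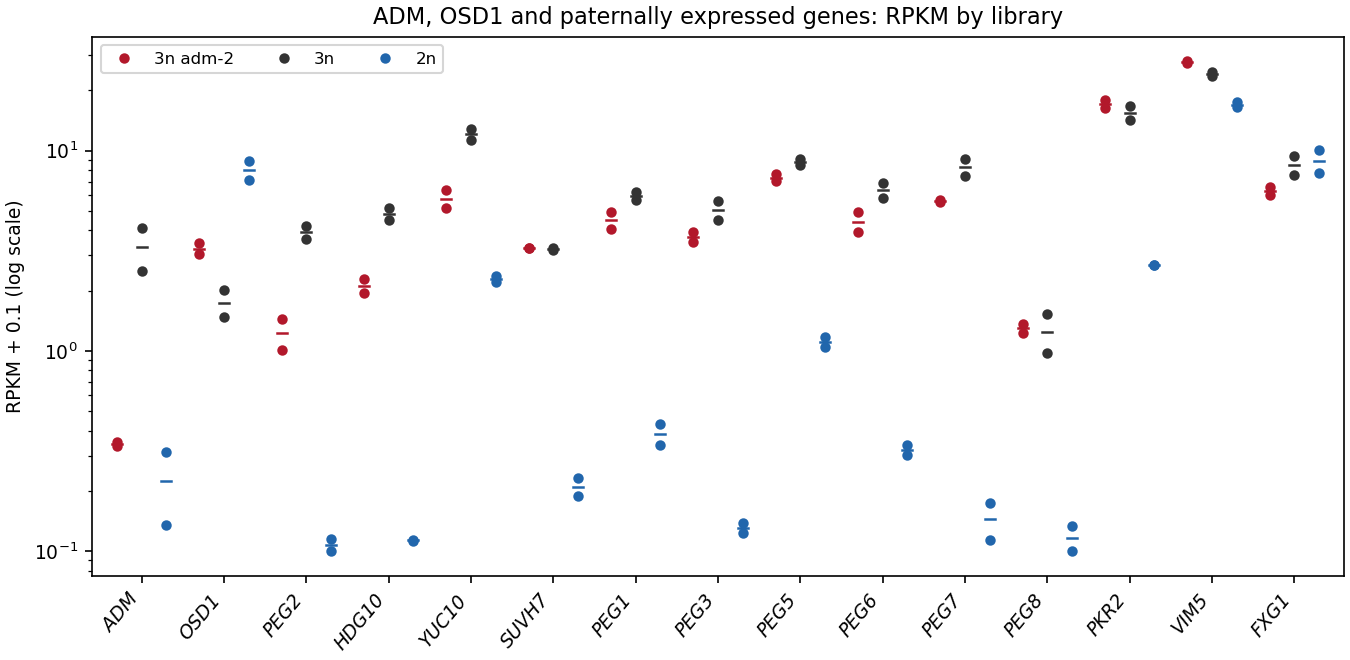
RPKM + 0.1 on a log axis for *ADM*, *OSD1* and *PEGs*, 1 point per library and a bar at the mean, for 3n *adm-2* (red), 3n (black) and 2n (blue). *ADM* stands at 0.251 and 0.237 RPKM in 3n *adm-2*, against 2.42 and 4.01 RPKM in 3n, and *PEG2*, *HDG10* and *YUC10* lie between 3n and 2n.

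Of the 522 called genes 79.3% were higher in 3n *adm-2*. The largest increases passed 3 on the log2 scale for 35 genes, while 2 genes fell by more than 3. Called genes under 1 RPKM in both libraries of one group entered through their level in the other group, so their calls are a description. The groups did not overlap for any called gene, but both 3n *adm-2* libraries lay above both 3n libraries for 8075 of the 18469 genes, 43.7%, and below for 3129, 16.9%, so lack of overlap alone is common here. With median-of-ratios size factors the median over all genes moved by -0.11 to -0.01, and 319 genes were called higher and 173 lower (64.8% higher), with all 319 and 108 of the 173 also called on the deposited scale. Differences below are on the deposited scale, and a list median between 0 and 0.11 turns negative under that rescaling. Among low-level genes of 1 to 4 RPKM 5.03% were called higher and 1.08% lower, whereas among genes of 64 RPKM or more 0.769% were called in each direction.

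The calls lean on the spread shared by all 5 groups. Fitted on the 4 libraries of 3n *adm-2* and 3n alone, limma called 0 genes (smallest adjusted p 0.0622), with 666 genes past a difference of 1 at an unadjusted p under 0.05, and the rank product called 66 higher and 13 lower. Without replicate 1 or 2 of 3n *adm-2*, so that the lone library was assumed to vary like the other groups, 129 and 173 genes were called higher and 13 lower in both cases. Without replicate 2 of 3n 316 were called higher and 32 lower, and 115 genes called higher and 5 called lower passed in all 4 of these fits. The mean in 2n was above that in 3n for 351 of the 414 genes called higher, beside 10029 of all 18469 genes, and below it for 106 of the 108 called lower. The mean in 3n *adm-2* was above that in 2n for 144 of the 414 and below it for 14 of the 108. As 2n and 3n *adm-2* are set against the same 3n libraries, these counts share their reference and are a description only.

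Seed storage protein genes rose most as a group. All 7 that were measured at 1 RPKM or more were called higher, with a median difference of 5.77, and their summed level was 114 and 113 RPKM in 3n *adm-2*, against 4.16 and 2.75 RPKM in 3n and 42.4 and 26.6 RPKM in 2n. These genes encode 2S albumins (*SESA*) and 12S cruciferins (*CRA1*, *CRU*), the proteins stored in the seed as a source of nitrogen. Of the 7 genes *SESA1*, *SESA2*, *SESA3*, *CRU2* and *CRU3* were under 1 RPKM in both 3n libraries and entered through their level in 3n *adm-2*, so their count is a description. *SESA3* (AT4G27160, chr4:13611796-13612563) had 45.4 and 44.2 RPKM in 3n *adm-2*, against 0.437 and 0.339 RPKM in 3n and 20.9 and 7.87 RPKM in 2n. The 2 groups of triploid seeds did not come near each other, and the difference was 6.53 (SE 0.54, adjusted p = 0.00151). *SESA1* to *SESA4* are tandem neighbours on chromosome 4 with similar sequences, so reads may have been split among them and their single values are uncertain. *SESA2* differed by 6.25 (SE 0.63, adjusted p = 0.00255), *SESA4* by 3.70 (SE 0.29, adjusted p = 0.00136) and *SESA1* by 3.54 (SE 0.47, adjusted p = 0.00527).

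*CRU3* had 9.45 and 9.34 RPKM in 3n *adm-2*, against 0.0208 and 0 RPKM in 3n and 0.0157 and 0 RPKM in 2n. *CRU2* had 6.15 and 5.76 RPKM in 3n *adm-2*, against 0.0229 and 0 RPKM in 3n. These cruciferin transcripts were all but undetected in 3n at this depth. In implied reads *CRU2* had 604 and 550 in 3n *adm-2*, against 2 and 0 in 3n, a ratio of 578 (exact 95% interval 160 to 4780, counting error only). For *CRU3* the summed reads, after rounding, were 2000 in 3n *adm-2*, against 2 in 3n, a ratio of 1000 (277 to 8280). Fragments were sequenced from both ends, so the 2 reads in 3n may stem from a single fragment. The intervals of both genes may therefore be too narrow. The fitted differences were 6.43 for *CRU3* (SE 0.35, adjusted p = 0.000453) and 5.77 for *CRU2* (SE 0.34, adjusted p = 0.000611), values that depend on the pseudocount of 0.1 because 3n was near 0. *CRA1* had 15.04 and 16.8 RPKM in 3n *adm-2*, against 1.93 and 1.19 RPKM in 3n, and rose by 3.31 (SE 0.42, adjusted p = 0.00468). *SESA2*, *SESA3*, *CRU2* and *CRU3* kept their calls whichever library was left out. The storage genes below 1 RPKM, *SESA5* and *CRUX*, had 0.601 and 0.33 RPKM and 0.492 and 0.439 RPKM in 3n *adm-2*, against 0 and 0.0369 RPKM and 0.221 and 0.202 RPKM in 3n.

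The upstream sequences of storage and oil body genes are given because the genes moved together. The windows are the 250 bases before the annotated gene start in RefSeq TAIR10.1, printed 5′ to 3′ on the gene's strand with matches to the RY element CATGCA on either strand in capitals (its reverse complement is TGCATG, and overlapping matches run together). *SESA3* held 7 matches, *OLEO1* 3 and *CRA1* 2.
SESA3, chr4:13611546-13611795, + strand: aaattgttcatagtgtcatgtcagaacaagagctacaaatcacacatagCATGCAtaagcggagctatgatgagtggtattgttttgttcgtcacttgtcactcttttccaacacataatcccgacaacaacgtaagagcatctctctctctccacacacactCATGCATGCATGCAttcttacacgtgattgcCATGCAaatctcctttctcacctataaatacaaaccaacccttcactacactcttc
OLEO1, chr4:12900180-12900429, + strand: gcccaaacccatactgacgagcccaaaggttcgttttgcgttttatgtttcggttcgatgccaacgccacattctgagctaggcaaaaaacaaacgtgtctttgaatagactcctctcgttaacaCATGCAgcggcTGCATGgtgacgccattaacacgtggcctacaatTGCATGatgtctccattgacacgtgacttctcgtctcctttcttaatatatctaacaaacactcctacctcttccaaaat
CRA1, chr5:17758337-17758586, - strand: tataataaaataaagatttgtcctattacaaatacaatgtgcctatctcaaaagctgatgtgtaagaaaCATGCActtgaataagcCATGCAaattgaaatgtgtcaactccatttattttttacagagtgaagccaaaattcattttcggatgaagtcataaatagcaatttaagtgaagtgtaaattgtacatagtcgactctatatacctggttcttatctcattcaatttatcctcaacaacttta
The letters CATGCA occurred in the window of 6 of the 7 storage genes, all but *CRU2*, and of 5 of the 5 oil body genes, beside 1318 of the 18387 genes with a window (7.17%). Among the genes called higher 68 of 414 held them (16.4%), and among those called lower 10 of 108 (9.26%). A match describes letters and not binding of a factor.

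Oil body genes followed at a smaller size. Oleosins coat the oil bodies in which seeds store triacylglycerol. Of the 5 genes measured at 1 RPKM or more 3 were called higher, beside 2.24% over all genes, with a median difference of 1.17. *OLE5* (AT3G01570) had 35.2 and 31.2 RPKM in 3n *adm-2*, against 6.51 and 3.52 RPKM in 3n and 224 and 123 RPKM in 2n. It rose by 2.77 (SE 0.40, adjusted p = 0.00744), and *OLEO1* rose by 2.14 (SE 0.40, adjusted p = 0.0189). *OLEO4* rose by 1.14 (SE 0.29, adjusted p = 0.0474), *OLEO3* differed by 1.17 (adjusted p = 0.0662) and *OLEO2* by 1.08 (adjusted p = 0.0714). Each of the 5 genes was far higher in 2n than in 3n *adm-2*, the opposite of *SESA2* to *SESA4*, *CRA1*, *CRU2* and *CRU3*, which were higher in 3n *adm-2* on average. The calls of all 3 oleosins were lost without either library of 3n *adm-2*, with differences of 2.33 to 3.20 for *OLE5*, 1.78 to 2.50 for *OLEO1* and 0.85 to 1.42 for *OLEO4* when one library was left out.

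Of 10 transcription factor genes that direct seed maturation 5 were called higher, beside 2.24% over all genes. All 10 had a positive difference, as had 12334 of the 18469 genes, and 7 had an adjusted p under 0.05 with a positive difference, as had 1803 of the 18469. The median was 0.97. *bZIP67*, a seed bZIP factor, had 5.18 and 3.73 RPKM in 3n *adm-2*, against 0.909 and 0.423 RPKM in 3n, and rose by 2.63 (SE 0.38, adjusted p = 0.00744). *bZIP67* was under 1 RPKM in both 3n libraries and entered through its level in 3n *adm-2*, so its call is a description. *NF-YB6* (LEC1-LIKE) had 15.5 and 16.0 RPKM, against 4.61 and 2.87 RPKM in 3n, and rose by 2.08 (SE 0.32, adjusted p = 0.0091). *LEC2*, a B3 factor that binds RY elements, had 13.0 and 13.8 RPKM, against 5.44 and 4.50 RPKM in 3n, and rose by 1.42 (SE 0.21, adjusted p = 0.00767). *WRI1*, which switches on fatty acid synthesis, and the bZIP gene *EEL* rose by 1.01 (adjusted p = 0.00343) and 1.03 (adjusted p = 0.0146). The B3 genes *FUS3* and *ABI3* differed by 0.93 (adjusted p = 0.0402) and 0.27 (adjusted p = 0.301), and *ABI5* by 0.01 (adjusted p = 0.994), so the regulators did not move by one common amount. With size factors 3 regulators were called, and without replicate 1 or 2 of 3n *adm-2* the calls of *bZIP67*, *NF-YB6* and *LEC2* were lost, at differences of 1.29 to 3.11.

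Genes of fatty acid and seed oil synthesis shifted less. Of 20 genes 2 were called higher and 0 lower, beside 2.24% and 0.585% over all genes. Of the 20, 12 had an adjusted p under 0.05 with a positive difference, and the median was 0.42. *FAE1*, the elongase that makes the very long chain fatty acids of seed oil, had 5.97 and 5.73 RPKM in 3n *adm-2*, against 0.148 and 0.14 RPKM in 3n and 84.6 and 58.0 RPKM in 2n. It rose by 4.61 (SE 0.42, adjusted p = 0.00187) and kept its call whichever library was left out. *BCCP2*, a subunit of the plastid acetyl-CoA carboxylase, had 52.1 and 55.6 RPKM, against 27.7 and 23.8 RPKM in 3n, and rose by 1.06 (SE 0.16, adjusted p = 0.00831). *FAD2*, the desaturase gene with the highest level in the list, had 490 and 528 RPKM, against 505 and 581 RPKM in 3n (-0.09, adjusted p = 0.687).

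**Figure D2:**
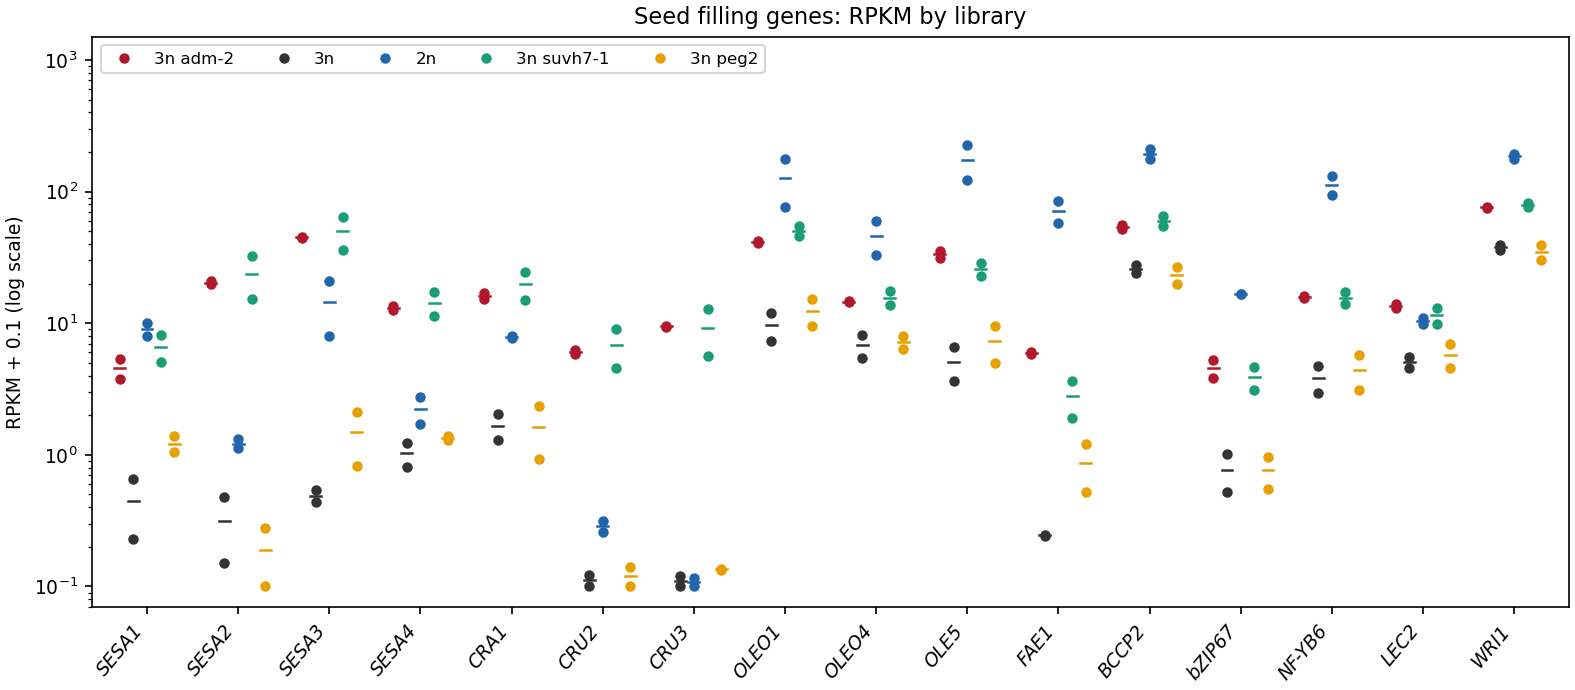
RPKM + 0.1 on a log axis for storage protein, oil body, maturation and fatty acid genes, 1 point per library and a bar at the mean, for each of the 5 groups. 3n *adm-2* and 3n *suvh7-1* lie together above 3n and 3n *peg2*, as in *SESA3* with 45.4 and 44.2 RPKM in 3n *adm-2*, against 0.437 and 0.339 RPKM in 3n.

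The largest increase of all was that of AT1G32280 (chr1:11646189-11647001), a member of the lipid-transfer and 2S albumin family. It had 69.4 and 64.3 RPKM in 3n *adm-2*, against 0.275 and 0.0903 RPKM in 3n, a difference of 7.97 (SE 0.25, adjusted p = 3.02e-05). In this gene the 3n libraries stood apart from all others, since 2n had 12.4 RPKM in each library, 3n *suvh7-1* 61.9 and 59.7 RPKM and 3n *peg2* 75.5 and 71.6 RPKM. The 3n libraries lay below all 8 other libraries in 62 of the 414 genes called higher and above all 8 in 27 of the 108 called lower, beside 407 and 395 of all 18469 genes. The 3n *adm-2* libraries lay above all 8 others in 105 of the 414 and below all 8 in 8 of the 108, beside 2939 and 645 of all 18469 genes.

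Also among the 10 largest increases were *GLIP6*, *KRS*, AT1G62070 and AT1G62225. Like AT1G32280 and *FAE1*, these genes were under 1 RPKM in both 3n libraries and entered through their level in 3n *adm-2*, so their values are a description. *GLIP6*, a GDSL-motif lipase gene, had 4.03 and 4.35 RPKM in 3n *adm-2*, against 0.0686 and 0.0281 RPKM in 3n, and rose by 4.87 (SE 0.51, adjusted p = 0.00283). *KRS*, which encodes a secreted peptide for the sheath around the embryo, had 5.70 and 5.83 RPKM, against 0.107 and 0.204 RPKM in 3n and 109 and 119 RPKM in 2n, and rose by 4.55 (SE 0.58, adjusted p = 0.00468). AT1G62070 and AT1G62225, uncharacterized genes on chromosome 1, rose by 5.04 (SE 0.97, adjusted p = 0.0205) and 4.77 (SE 0.78, adjusted p = 0.0113), and their calls were lost without any one of the 4 libraries, although the differences stayed between 4.70 and 5.16. *GLIP6* kept its call without each library, and *KRS* lost it without either library of 3n *adm-2*.

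Of 18 endosperm genes 3 rose and 2 fell, beside 2.24% and 0.585% over all genes. Beside *KRS*, *EPR1*, an extensin-like wall protein gene of endosperm, had 74.8 and 85.0 RPKM in 3n *adm-2*, against 4.43 and 6.81 RPKM in 3n and 742 and 552 RPKM in 2n, and rose by 3.83 (SE 0.35, adjusted p = 0.00189). *MYB56*, a MYB transcription factor gene that affects seed size, had 15.3 and 14.5 RPKM, against 1.58 and 0.724 RPKM in 3n, and rose by 3.67 (SE 0.32, adjusted p = 0.00162). The genes that fell encode small secreted peptides of early endosperm. *ESF1.2* had 29.1 and 29.9 RPKM in 3n *adm-2*, against 83.5 and 97.3 RPKM in 3n and 0.681 and 0.678 RPKM in 2n, and fell by 1.61 (SE 0.17, adjusted p = 0.00264). *ESF1.3* had 10.7 and 10.0 RPKM, against 22.3 and 36.4 RPKM in 3n, and fell by 1.45 (SE 0.21, adjusted p = 0.00773). The genes that rose were thus high in 2n and the genes that fell were nearly silent there, so members of the list moved both ways. *EPR1*, *MYB56* and *ESF1.2* were called without each library, whereas *ESF1.3* lost its call without either library of 3n *adm-2* (-1.81 to -1.10 over the 4 fits).

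**Figure D3:**
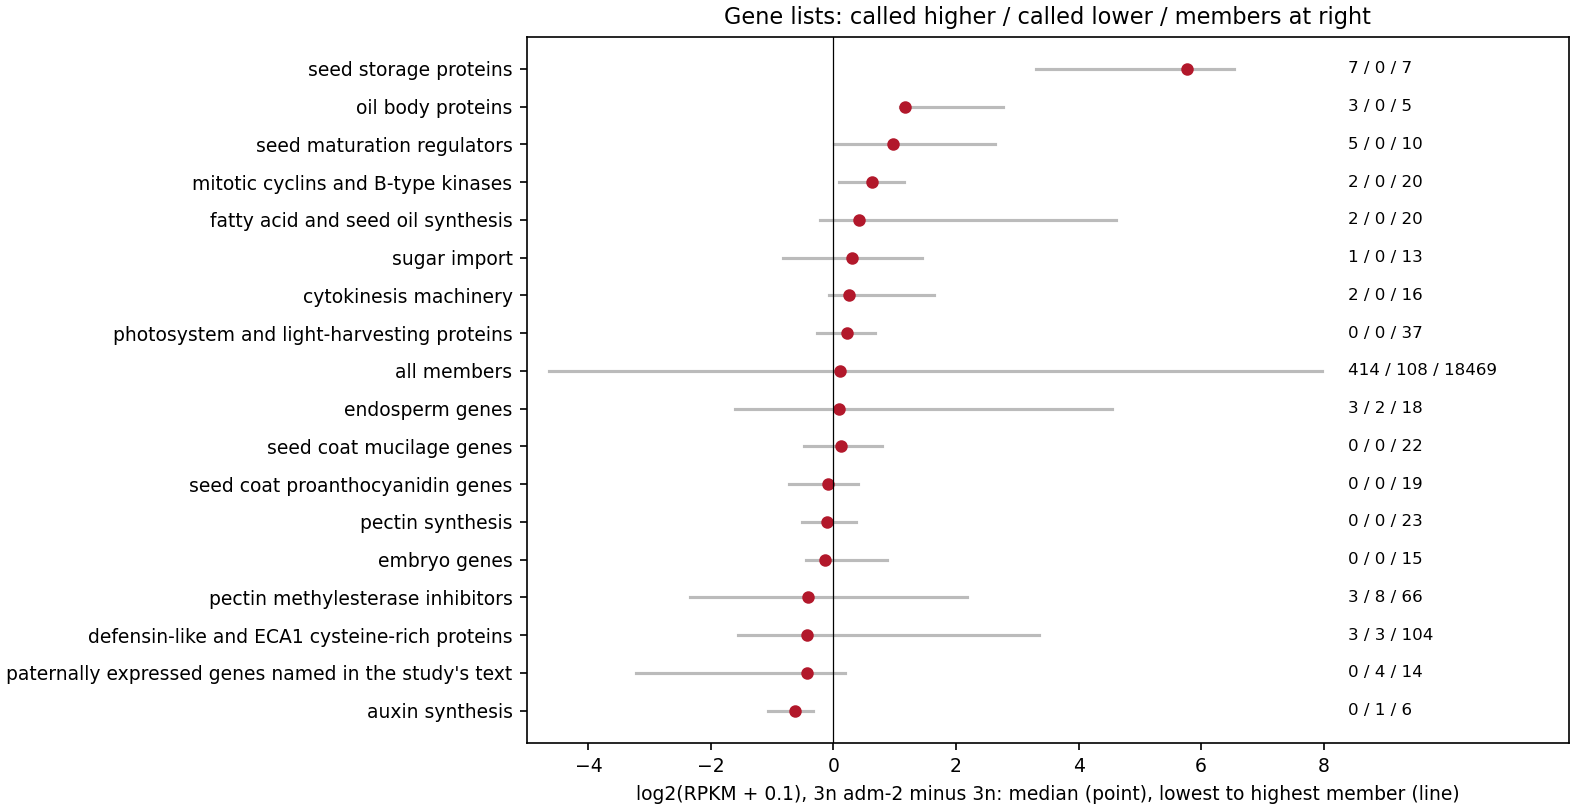
For the gene lists shown and all 18469 genes, the median (point) and the lowest to highest member (line) of the log2(RPKM + 0.1) difference, 3n *adm-2* minus 3n, with the genes called higher, called lower and measured at right. Storage proteins lie highest with a median of 5.77 and 7 of 7 called higher, and *PEGs* and auxin synthesis genes lie lowest among the lists shown.

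Of 20 mitotic cyclins and B-type kinases, which drive cell division, 2 were called higher, beside 2.24% over all genes, and 0 lower. All 20 had a positive difference, 14 of them at an adjusted p under 0.05, beside 12334 and 1803 of the 18469 genes, and the median was 0.62. *CYCB2;2* had 2.83 and 3.12 RPKM in 3n *adm-2*, against 1.203 and 1.378 RPKM in 3n and 6.81 and 6.76 RPKM in 2n, and rose by 1.15 (SE 0.17, adjusted p = 0.00843). *CYCA2;1* had 1.62 and 1.89 RPKM, against 0.724 and 0.746 RPKM in 3n, and rose by 1.15 (SE 0.21, adjusted p = 0.0189). *CYCA2;1* entered through its level in 3n *adm-2*, so its call is a description. *CDC20.1*, an activator of the anaphase-promoting complex, had 29.4 and 28.3 RPKM, against 14.4 and 15.1 RPKM in 3n (0.97, adjusted p = 0.0248). Both calls were lost without either library of 3n *adm-2*, and that of *CYCA2;1* also without either of 3n, at differences of 1.04 to 1.25.

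Of 16 genes of the cytokinesis machinery, which builds the wall between daughter cells, 2 were called higher and 0 lower (median 0.26). Over all genes 2.24% were called higher and 0.585% lower. *SYP111* (KNOLLE), the syntaxin that fuses vesicles at the cell plate, had 107 and 102 RPKM in 3n *adm-2*, against 41.8 and 26.9 RPKM in 3n and 289 RPKM in each library of 2n. It rose by 1.64 (SE 0.21, adjusted p = 0.00511). *HIK* (HINKEL), a kinesin of the phragmoplast, had 10.9 and 11.9 RPKM, against 5.99 and 5.04 RPKM in 3n and 29.3 and 29.0 RPKM in 2n, and rose by 1.03 (SE 0.12, adjusted p = 0.00378). *PLE*, a microtubule bundling protein gene, and the kinesin gene *TES* had an adjusted p under 0.05 with differences of 0.77 and 0.69. The highest-level genes of the list, *KOR1* and *DL1*, differed by 0.23 (adjusted p = 0.0602) and -0.02 (adjusted p = 0.908). The call of *SYP111* was lost without either library of 3n *adm-2* (1.32 to 1.95), and that of *HIK* was lost without replicate 2 of either group (0.91 to 1.16).

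Among hormone genes the largest change was in gibberellin synthesis. Over all genes 2.24% were called higher and 0.585% lower, and a single call in a short list is no result about that list. *GA20OX3*, a gibberellin 20-oxidase gene of seeds, had 24.6 and 24.7 RPKM in 3n *adm-2*, against 1.89 and 1.27 RPKM in 3n and 230 and 225 RPKM in 2n. It rose by 3.90 (SE 0.40, adjusted p = 0.00255) and was the 1 gene called of 8 gibberellin oxidases, whichever library was left out. *GA20OX5*, the oxidase gene with the highest level next to it, had 20.4 and 18.8 RPKM, against 25.7 and 26.3 RPKM in 3n (-0.41, adjusted p = 0.265). Of 6 auxin synthesis genes only *YUC10* was called, with all 6 differences negative and a median of -0.63. *CKX2*, a cytokinin oxidase gene, had 20.14 and 19.81 RPKM in 3n *adm-2*, against 36.1 and 39.6 RPKM in 3n and 0.585 and 0.405 RPKM in 2n (-0.92, SE 0.21, adjusted p = 0.0371), within the fold limit and so not called. No gene was called among 7 genes of abscisic acid synthesis and breakdown or 5 of cytokinin, of which 0 and 1 had an adjusted p under 0.05 and 2 in each list an unadjusted one.

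Genes that bring nutrients into the seed were called singly. Over all genes 2.24% were called higher and 0.585% lower, so the single calls below are no result about their lists. *AAP8*, an amino acid permease gene of young seeds, had 7.36 and 6.31 RPKM in 3n *adm-2*, against 19.2 and 20.8 RPKM in 3n and 0.861 and 0.945 RPKM in 2n. It fell by 1.54 (SE 0.11, adjusted p = 0.001), was called without each library, and was the 1 gene called of 16 amino acid and nitrate transporters. *SUS2*, a sucrose synthase gene of maturing seeds, had 3.46 and 4.08 RPKM, against 1.37 and 1.28 RPKM in 3n, and rose by 1.44 (SE 0.28, adjusted p = 0.0217), but not without any one library (1.32 to 1.55), and was the 1 gene called of 13 sugar import genes. *CLSY1*, a remodeller of RNA-directed DNA methylation, was the 1 gene called of 31 in DNA methylation and silencing. It had 8.14 and 8.64 RPKM in 3n *adm-2*, against 3.72 and 3.23 RPKM in 3n and 25.2 and 23.9 RPKM in 2n, and rose by 1.25 (SE 0.15, adjusted p = 0.00416), also without each library. Of 14 Polycomb and PICKLE genes 0 were called, 2 had an adjusted p under 0.05 and 8 an unadjusted p under 0.05, all with a positive difference.

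Genes for the modification of pectin, the gel of the primary cell wall, fell and rose. Of 66 pectin methylesterase inhibitor family genes 8 fell and 3 rose, with a median of -0.41 and 49 of the 66 differences negative. Over all genes 0.585% fell and 2.24% rose. AT3G17140 had 4.07 and 3.28 RPKM in 3n *adm-2*, against 16.6 and 21.8 RPKM in 3n, and 0 and 0.0452 RPKM in 2n, and fell by 2.35 (SE 0.32, adjusted p = 0.00608). AT1G11362 had 0.653 and 0.398 RPKM, against 1.90 and 1.94 RPKM in 3n, and fell by 1.72 (SE 0.25, adjusted p = 0.00711). AT5G20740 had 1.92 and 1.84 RPKM, against 4.30 and 11.1 RPKM in 3n, and fell by 1.82 (SE 0.44, adjusted p = 0.0401). In the last of these the 3n replicates differed more than 2-fold. AT3G12880 went the other way, with 61.5 and 60.1 RPKM in 3n *adm-2*, against 19.7 and 13.3 RPKM in 3n and 84.4 and 82.5 RPKM in 2n, and rose by 1.90 (SE 0.17, adjusted p = 0.00187). AT3G12880 and AT4G25260 (1.07, adjusted p = 0.00285) kept their calls without each library, and 2 to 9 genes of the family were called when one library was left out.

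The pectin methylesterase gene *PME44* had 45.7 and 46.4 RPKM in 3n *adm-2*, against 83.5 and 164 RPKM in 3n, and fell by 1.34 (SE 0.31, adjusted p = 0.0371), while *PME3* had 2.26 and 2.44 RPKM, against 1.12 and 1.01 RPKM in 3n, and rose by 1.07 (SE 0.22, adjusted p = 0.0263). They were the 2 called of 9 genes listed as pectin methylesterases, beside 2.24% called higher and 0.585% called lower over all genes. Of 49 genes listed as polygalacturonases or other pectin lyase-like proteins 2 rose, beside 2.24% over all genes. These were AT2G43870 by 2.27 (adjusted p = 0.0052) and *PME5* by 1.7 (adjusted p = 0.00761). *PME5* is a pectin methylesterase by its symbol but is annotated as a pectin lyase-like protein, so the lists do not separate the enzyme classes. Neither of the 2 pectate lyase genes measured was called, with differences of -0.83 (AT3G01270, adjusted p = 0.464) and -0.77 (AT59, adjusted p = 0.208), and neither had an unadjusted p under 0.05. Of 23 genes of pectin synthesis 0 were called and 2 had an adjusted p under 0.05, *UGD3* at 0.37 and *GAE6* at -0.52. Among other wall genes the expansin gene *EXPB1* rose by 1.56 (SE 0.32, adjusted p = 0.025), the 1 called of 18, beside 2.24% called higher over all genes. Of 14 xyloglucan endotransglucosylases and 7 cellulose synthases 0 were called. None of them had an adjusted p under 0.05, and 6 of the 14 and 0 of the 7 had an unadjusted one. The calls of *PME44*, *PME3*, *PME5*, AT2G43870 and *EXPB1* each ended when one library was left out. AT2G43870 and *EXPB1* were below the RPKM limit in both 3n libraries and entered through 3n *adm-2*, so their calls are a description.

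Of 104 genes for small secreted proteins of the defensin-like and ECA1 cysteine-rich kind 3 rose and 3 fell (median -0.43), beside 2.24% and 0.585% over all genes, so the share that rose is near that over all genes. *LCR39* had 10.4 and 7.75 RPKM in 3n *adm-2*, against 0.718 and 0.851 RPKM in 3n and 55.1 and 51.0 RPKM in 2n, and rose by 3.36 (SE 0.38, adjusted p = 0.00347). *LCR39* entered through its level in 3n *adm-2*, so its call is a description. *LCR69* had 743 and 746 RPKM, against 178 and 116 RPKM in 3n, and rose by 2.38 (SE 0.31, adjusted p = 0.0049), whereas *LCR24* had 13.9 and 12.8 RPKM, against 26.6 and 40.8 RPKM in 3n, and fell by 1.3 (SE 0.21, adjusted p = 0.0103). With size factors 11 genes of this list were called.

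Of 48 lipid transfer protein genes 6 rose, AT1G32280 among them, and 2 fell, beside 2.24% and 0.585% over all genes. The tandem neighbours AT5G38170 and AT5G38160, among the most abundant transcripts, had 1370 and 1222 RPKM and 1002 and 858 RPKM in 3n *adm-2*, against 330 and 229 RPKM and 252 and 192 RPKM in 3n. They rose by 2.24 (SE 0.22, adjusted p = 0.00244) and 2.07 (SE 0.20, adjusted p = 0.00198), also without each library, although near-identical neighbours may share reads. *LP1*, the epidermal lipid transfer protein gene, fell instead, with 579 and 597 RPKM, against 1287 and 2205 RPKM in 3n (-1.52, SE 0.30, adjusted p = 0.0229), a call that ended without either library of 3n *adm-2* or replicate 2 of 3n (-1.91 to -1.13).

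Of 262 F-box protein genes, whose products choose targets for degradation, 7 rose and 4 fell, beside 2.24% and 0.585% over all genes, and 26 and 5 had an adjusted p under 0.05 in these directions, beside 1803 and 384 of the 18469 genes. The share that rose is near that over all genes and is no result about the family. AT2G17305 had 8.42 and 8.82 RPKM in 3n *adm-2*, against 1.86 and 1.48 RPKM in 3n, and rose by 2.31 (SE 0.13, adjusted p = 0.000453). AT1G76830 had 0.504 and 0.686 RPKM, against 2.01 and 5.00 RPKM in 3n, and fell by 2.25 (SE 0.41, adjusted p = 0.017). The median of the family was 0.16, beside 0.10 over all genes.

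AT1G47395, an uncharacterized gene, had the largest decrease of any called gene, with 0.177 and 0.319 RPKM in 3n *adm-2*, against 3.48 and 3.96 RPKM in 3n (-3.48, SE 0.51, adjusted p = 0.00773). *MLP31*, a gene of the major latex protein family, had 8.12 and 6.72 RPKM, against 73.6 and 42.0 RPKM in 3n and 23.5 and 65.0 RPKM in 2n, and fell by 2.90 (SE 0.58, adjusted p = 0.0235). AT5G12060, of the self-incompatibility S1 family, had 1.73 and 1.25 RPKM, against 7.75 and 14.6 RPKM in 3n and 0 RPKM in 2n, and fell by 2.77 (SE 0.34, adjusted p = 0.00416). AT1G47395 was also nearly silent in 2n, at 0 and 0.0409 RPKM, whereas *MLP31* was lower in 3n *adm-2* than in any library of 2n. *PRP4*, a proline-rich wall protein gene, had 9.58 and 10.1 RPKM, against 31.0 and 71.9 RPKM in 3n, and fell by 2.25 (SE 0.42, adjusted p = 0.0184). AT2G30984 and AT2G30985 overlap on chromosome 2 and may share reads, and both were called lower (-2.37 and -2.38). Of these genes AT5G12060 alone was called without each library, and leaving out one gave differences of -3.78 to -3.19 for AT1G47395, -3.30 to -2.49 for *MLP31* and -2.86 to -1.65 for *PRP4*.

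**Figure D4:**
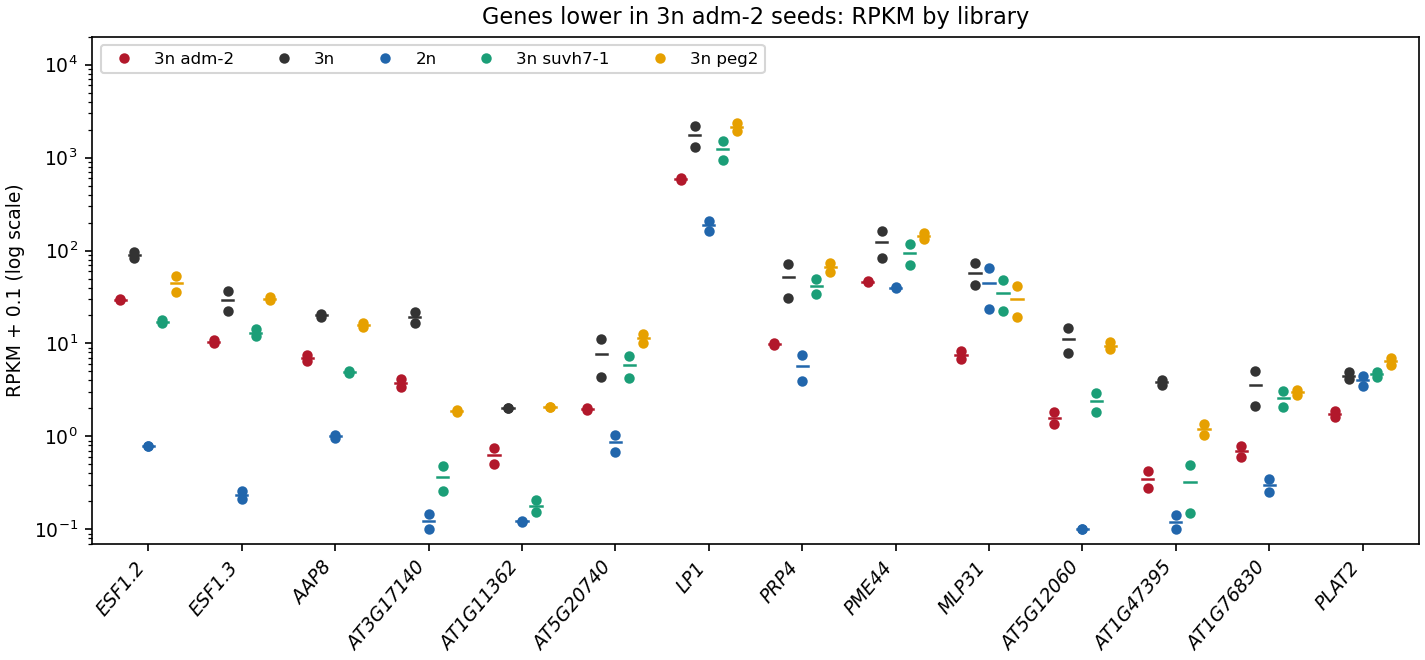
RPKM + 0.1 on a log axis for 14 genes that fell in 3n *adm-2*, 1 point per library and a bar at the mean, for each of the 5 groups. *ESF1.2*, *AAP8* and AT3G17140 are nearly silent in 2n and lie lower in 3n *adm-2* than in 3n, whereas *MLP31* lies lowest in 3n *adm-2*.

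Apart from the endosperm genes above, of which 3 rose and 2 fell, marker lists of tissues that a seed sample can hold gave no calls. Of 15 embryo genes and 19 seed coat proanthocyanidin genes 0 were called, nor were any of 22 seed coat mucilage genes, 9 silique and leaf genes, 7 pollen genes or 37 photosystem and light-harvesting genes. At an adjusted p under 0.05 alone 2, 1, 3, 1, 0 and 1 of them passed in that order, at an unadjusted p under 0.05 6, 8, 6, 1, 0 and 9, and by rank product 0 of each. The medians were -0.13, -0.08, 0.12, -0.08, -0.21 and 0.21 in the same order. Proanthocyanidin genes summed to 4098 and 4005 RPKM in 3n *adm-2*, against 4159 and 5203 RPKM in 3n, and photosystem genes to 5002 and 4978 RPKM, against 4265 and 4404 RPKM in 3n. Of the 32 pollen genes listed 7 averaged at least 1 RPKM, and these summed to 142 and 148 RPKM in 3n *adm-2*, against 155 and 160 RPKM in 3n. *RBCS1A*, a rubisco subunit gene of green tissue, had 1662 and 1652 RPKM, against 1247 and 1388 RPKM in 3n (0.33, adjusted p = 0.201). What these levels contribute to the other differences was not tested.

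The stress, defence, histone and transposable element lists also gave no calls. Of 10 heat and protein folding genes 3 had an adjusted p under 0.05 with a negative difference, among them the endoplasmic reticulum chaperone genes *BIP1* (-0.49, adjusted p = 0.02) and *BIP2* (-0.45, adjusted p = 0.0399). Of 4 defence and cell death genes 0 had an unadjusted p under 0.05. Of 48 histone genes and 16 transposable element genes 0 were called, with 5 and 1 at an adjusted p under 0.05 and 10 and 2 at an unadjusted one. The hAT family gene AT4G15020 had 22.4 and 21.9 RPKM in 3n *adm-2*, against 21.1 and 22.5 RPKM in 3n (0.03, adjusted p = 0.858).

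Seeds with paternal *adm-2* were then set directly against those with paternal *suvh7-1*, a contrast without the 3n libraries. Of the 18469 genes 588 were called higher in 3n *adm-2* (3.18%) and 37 lower (0.200%). The genes were chosen by their level in 3n *adm-2* and 3n, so genes high in 3n *suvh7-1* alone were left out. Size factors were 1.08 and 1.05 in 3n *adm-2*, against 0.963 and 0.968 in 3n *suvh7-1*, and the counts are on the deposited scale. The excess of genes called higher is therefore a description. Without replicate 1 or 2 of 3n *adm-2* these counts were 5 and 15 higher and 0 and 1 lower, and without replicate 1 of 3n *suvh7-1* they were 225 and 18. None of the 7 storage, 5 oil body, 10 maturation, 20 fatty acid, 16 cytokinesis and 20 mitotic genes was called different. *FAE1* differed by 1.17 (adjusted p = 0.103), and *SYP111* had 107 and 102 RPKM in 3n *adm-2*, against 162 and 169 RPKM in 3n *suvh7-1* (-0.66, adjusted p = 0.0791). *SESA3* had 45.4 and 44.2 RPKM, against 35.9 and 63.9 RPKM in 3n *suvh7-1* (-0.10, adjusted p = 0.938), where the *suvh7-1* replicates spread more than the groups. Of the 14 *PEGs* 2 were called higher in 3n *adm-2*, *SUVH7* itself (1.89, adjusted p = 0.00709) and *PEG7*, with 5.45 and 5.59 RPKM, against 2.35 and 1.90 RPKM in 3n *suvh7-1* (1.34, adjusted p = 0.0143).

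Calls against 3n *suvh7-1* included 8 higher and 2 lower of 262 F-box genes and 2 higher each of 8 gibberellin oxidases and 31 DNA methylation genes. Over all genes 3.18% were called higher and 0.200% lower. The F-box share called higher is near that over all genes and is no result about the family. Of 66 pectin methylesterase inhibitor family genes 15 were higher in 3n *adm-2* and 0 lower, and of 104 defensin-like genes 24 were higher and 4 lower. Family members high in 3n *suvh7-1* alone were left out by the choice of genes, so these counts are a description. AT3G17140 had 4.07 and 3.28 RPKM in 3n *adm-2*, against 0.377 and 0.16 RPKM in 3n *suvh7-1* (3.41, adjusted p = 0.00497). *EXPA21*, an expansin gene, had 295 and 271 RPKM, against 157 and 79.7 RPKM in 3n *suvh7-1* (1.34, adjusted p = 0.0278). These genes thus lay between 3n *suvh7-1* and 3n, where AT3G17140 had 16.6 and 21.8 RPKM and *EXPA21* 503 and 613 RPKM.

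Against 3n *peg2*, 688 genes were called higher in 3n *adm-2* (3.73%) and 234 lower (1.27%). Here too the genes were chosen by their level in 3n *adm-2* and 3n, so genes high in 3n *peg2* alone were left out. Without one library of 3n *adm-2* the counts were 282 and 346 higher and 38 and 42 lower, and without replicate 1 of 3n *peg2* 357 and 45. All 7 storage genes, 3 of 5 oil body genes and 6 of 10 maturation regulators were higher in 3n *adm-2*, as were 4 of 20 mitotic and 3 of 16 cytokinesis genes. *SESA1*, *SESA2*, *SESA3*, *CRU2*, *CRU3*, *bZIP67* and *CYCA2;1* entered through their level in 3n *adm-2*, so the counts that hold them are a description. *SESA3* had 45.4 and 44.2 RPKM in 3n *adm-2*, against 0.729 and 2.03 RPKM in 3n *peg2* (5.08, adjusted p = 0.00211). *GA20OX3* had 24.6 and 24.7 RPKM, against 1.61 and 4.56 RPKM in 3n *peg2* (3.13, adjusted p = 0.00337). *CKX2* was lower, with 20.14 and 19.81 RPKM, against 60.7 and 55.0 RPKM in 3n *peg2* (-1.53, adjusted p = 0.00465), as was *AAP8*, with 7.36 and 6.31 RPKM, against 16.4 and 14.9 RPKM (-1.19, adjusted p = 0.00134).

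In 61 genes 3n *adm-2* was called higher than 3n, 3n *suvh7-1* and 3n *peg2* alike, and in 9 genes lower than all of these. The same limit on the choice of genes applies to these counts. *QQS* (AT3G30720), an orphan gene that affects starch content, had 2.75 and 2.25 RPKM in 3n *adm-2*, against 0.0934 and 0.432 RPKM in 3n *suvh7-1*, 0 RPKM in both 3n *peg2* libraries and 0 and 0.131 RPKM in 3n. It was 3.01 above 3n *suvh7-1* (adjusted p = 0.0154) and 4.09 above 3n (SE 0.52, adjusted p = 0.00468). AT3G29633, an uncharacterized gene, had 8.14 and 8.91 RPKM, against 0.57 and 1.13 RPKM in 3n *suvh7-1* and 0.972 and 0.798 RPKM in 3n. AT2G04120, a pseudogene of a RAB GTPase, had 7.94 and 5.74 RPKM, against 1.09 and 0.84 RPKM in 3n *suvh7-1* and 1.34 and 1.14 RPKM in 3n. In each of these 3 genes both libraries of 3n *adm-2* were above all 8 other libraries. *QQS* and AT3G29633 were below the RPKM limit in both 3n libraries and entered through 3n *adm-2*, so their calls are a description. *PLAT2*, a PLAT domain gene, and AT2G04570, a GDSL lipase gene, were lower than in the other triploid groups, *PLAT2* with 1.498 and 1.758 RPKM in 3n *adm-2*, against 4.86 and 4.20 RPKM in 3n *suvh7-1* and 4.03 and 4.80 RPKM in 3n.

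**Figure D5:**
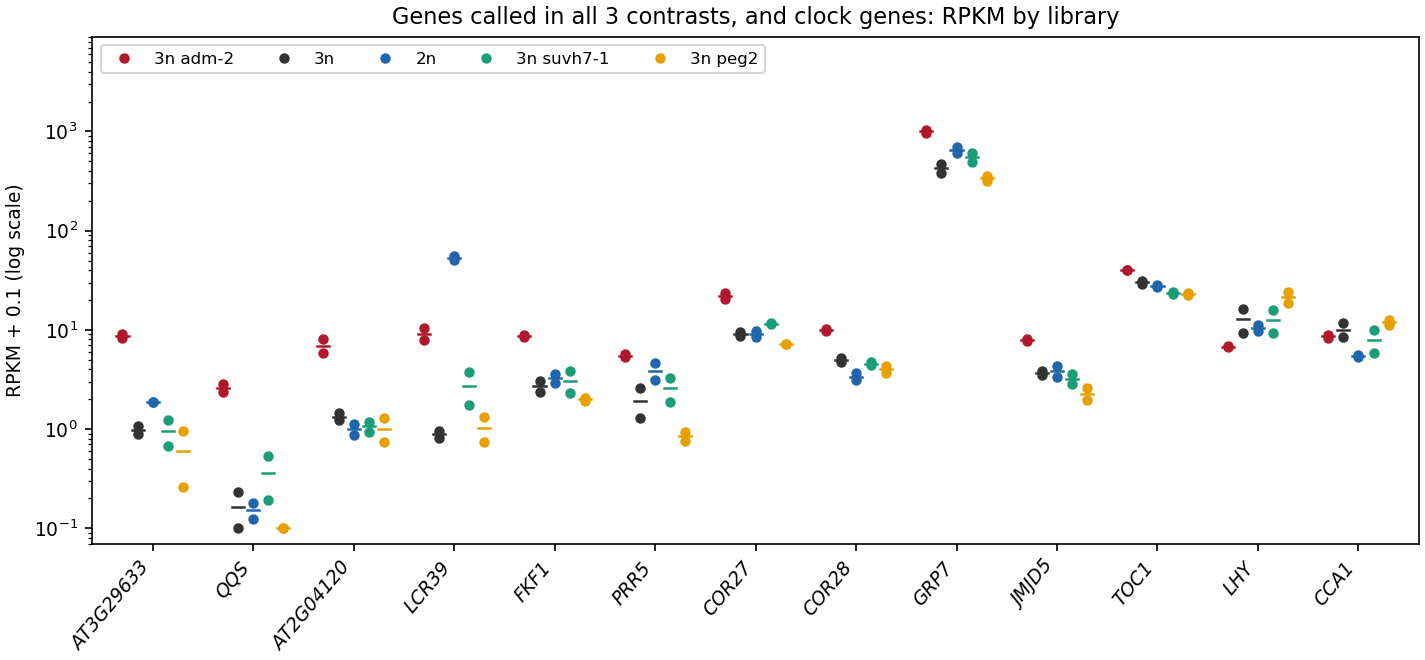
RPKM + 0.1 on a log axis for genes called in all 3 contrasts and for circadian clock genes, 1 point per library and a bar at the mean, for each of the 5 groups. AT3G29633, *QQS*, AT2G04120, *FKF1*, *COR27*, *GRP7* and *JMJD5* lie highest of the triploid groups in 3n *adm-2*, whereas *LHY* and *CCA1* do not.

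The called genes were spread over the genome. By chromosome 1.92% to 2.91% of genes were called higher, with the highest share on chromosome 2 (83 of 2851), and 0.468% to 0.805% lower, with the highest share on chromosome 1 (39 of 4842). Within 2 Mb of *ADM* 7 of 520 genes were called higher (1.35%) and 3 lower (0.577%), *ADM* included, and within 2 Mb of *OSD1* 19 of 824 (2.31%) and 5 (0.607%).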

How the data were processed

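RNA was extracted from seeds at 6 DAP and sequenced by the authors, who mapped reads to TAIR10 with TopHat2 2.0.10 (submitters' processing notes), with no read placed more than 1 time. The deposited table holds RPKM computed by the authors for 33602 genes. The tool that made the RPKM values is not given in the sources used here. About 47.3% to 52.3% of values worth up to 10 reads came out as whole reads (within 0.05) from the steps and RefSeq exon lengths, so no count test was run. Intervals and ratios from implied reads cover counting error only. They treat each read as independent, although sequencing was paired-end, so they are too narrow where both ends of a fragment were counted.

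Values were analysed as log2(RPKM + 0.1), and the pseudocount understates changes of low genes. limma 3.58.1 in R 4.3.3 (lmFit, eBayes with a trend) was fitted to all 10 libraries in 5 groups and to 26601 genes (values over 0 in 2 libraries or more), with 5 residual degrees of freedom and Benjamini-Hochberg adjustment. Called means an adjusted p under 0.05 and a log2 difference past 1. The rank product used by the study was run with 100 permutations as an alternative. Other alternatives were pseudocounts of 1 and 0.01, other filters, size factors, robust eBayes, a replicate block, the compared libraries alone, no fold threshold and each library left out. The fit and the rank product were tested on simulated data. Tables and figures used Python 3.11.15, pandas 2.3.3, numpy 2.4.6 and matplotlib 3.10.9.

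Members and lists were chosen with earlier results of these data known, and lists are described by counts and medians without a set test. Named genes were the mutated genes, the *PEGs* of the study's text, the 10 largest called changes in each direction, up to 3 called genes per list and direction (or the 2 with the highest level), and the 5 largest called in all 3 contrasts. Single list members outside that rule were named after their values were seen. MADS-box genes are not reported here. Gene names, coordinates and sequences come from RefSeq TAIR10.1, in which 32835 loci matched. Whether counting used strand is not given in the sources used here, so overlapping genes may share reads.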

Additional observations from a re-analysis of the deposited data

Results flagged for a closer look

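Genes were singled out where paternal *adm-2* and another paternal mutation, set against the same 3n seeds, differed in a direct test between the mutants (limma, adjusted p under 0.05 and a log2 difference past 1). They were taken from the genes called against 3n that had the largest changes or were among those named as called in all 3 contrasts. The cause of these differences was not tested. Against 3n *suvh7-1*, 5 such genes were higher in 3n *adm-2*, AT3G17140 by 3.41, AT3G29633 by 3.25, *QQS* by 3.01, AT2G04120 by 2.695 and *LCR39* by 1.83. AT3G29633, *QQS* and *LCR39* entered through their level in 3n *adm-2*, so their differences are a description. *LCR39* had 10.4 and 7.75 RPKM in 3n *adm-2*, against 1.64 and 3.64 RPKM in 3n *suvh7-1*. The other 6 were lower, with differences of -2.13 for *MLP31*, -2.06 for *PRP4*, -1.88 for AT1G76830, -1.83 for AT4G16240, -1.43 for AT2G04570 and -1.42 for *PLAT2*. *PRP4* had 9.58 and 10.1 RPKM in 3n *adm-2*, against 49.8 and 34.0 RPKM in 3n *suvh7-1*. Over all genes named by rule and called against 3n, 8 were called higher and 7 lower than in 3n *suvh7-1*.

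Against 3n *peg2*, 13 such genes were higher in 3n *adm-2*. Those of seed filling were *SESA2* by 6.93, *CRU3* by 6.13, *CRU2* by 5.67, *SESA3* by 5.08 and *FAE1* by 2.897. *CRU3* had 9.45 and 9.34 RPKM in 3n *adm-2*, against 0.0337 and 0.0366 RPKM in 3n *peg2*. The others were *QQS* by 4.69, AT1G62070 by 4.55, AT3G29633 by 4.12, AT1G62225 by 3.87, *LCR39* by 3.2, *GLIP6* by 2.89, AT2G04120 by 2.81 and *KRS* by 2.71. All of these 13 genes except AT2G04120 were under 1 RPKM in both 3n libraries. They entered through their level in 3n *adm-2*, so their differences are a description. The 10 that were lower had differences of -2.925 for *ADM*, -2.725 for *PRP4*, -2.59 for AT5G12060, -2.50 for AT2G04570, -2.45 each for AT2G30984 and AT2G30985, -2.10 for AT1G76830 and AT4G16240, -1.898 for *PLAT2* and -1.8 for AT1G47395. *ADM* is the gene mutated in 3n *adm-2*, so its difference is only a check of the labels. Over all genes named by rule and called against 3n, 42 were called higher and 18 lower than in 3n *peg2*.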

How the results depend on the processing

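With size factors the median over all genes moved to -0.01, against 0.10 on the deposited scale, and that of 8 lists turned negative: endosperm genes (-0.01), cytokinin (-0.05), DNA methylation (-0.03), defence (-0.03), polygalacturonases (-0.08), histones (-0.07), lipid transfer proteins (-0.0029) and transposable elements (-0.06). Of the 42 single genes followed no called difference changed sign, and of those not called *SUVH7* turned to -0.08 and *PEG8* to -0.01 with size factors, and *PEG8* to -0.23 without replicate 1 of 3n. The counts of 414 genes higher and 108 lower than in 3n moved with the settings: a pseudocount of 1 gave 259 higher, no filter on low values 36 lower, size factors 173 lower, no fold threshold 1803 higher and 384 lower, and the rank product 66 higher and 13 lower. Fitted on the libraries of 3n *adm-2* and 3n alone, limma called 0 genes in either direction, with 4888 at an unadjusted p under 0.05 and a smallest adjusted p of 0.0622. With the replicate number as a replicate block 396 genes were higher and 85 lower, of which 392 and 84 were among the 414 and 108. Deviations of same-numbered libraries correlated across genes at r of -0.195 to 0.233 over the pairs of groups. The highest value was that of 3n *suvh7-1* with 3n *peg2*, and pairs with 3n *adm-2* had -0.0711 to 0.0707. Called members of the lists, 75 in the main fit, came to 0 with the 4 libraries alone, 170 without the fold threshold and 19 by rank product, and called named genes, 72, to 0 and, by rank product, 27.

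Against 3n *suvh7-1* the 588 higher and 37 lower became 314 higher with a pseudocount of 1, 301 and 19 without the filter, 83 lower with size factors, 0 and 0 with the libraries of these groups alone (7190 at an unadjusted p under 0.05), and 2334 and 405 without the fold threshold. Against 3n *peg2* the 688 and 234 became 386 higher with a pseudocount of 1, 99 lower without the filter, and 3315 and 983 without the fold threshold. Leaving out one library gave 129 to 396 higher and 13 to 147 lower against 3n, 28 to 79 called list members, 24 to 60 called named genes, 5 to 596 higher and 0 to 42 lower against 3n *suvh7-1*, and 282 to 622 higher and 38 to 125 lower against 3n *peg2*. Of 542 comparisons for 42 single genes 440 kept their call or lack of one, 101 lost a call and 1 gained one, and 22 of 78 called genes named kept their call without each library. Of the causes, only fewer libraries or genes is built into a setting; the others were not tested.

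With 2 libraries per group, the spread of single genes leans on all 5 groups. Low values rest on few reads: *CRU2* and *CRU3* in 3n had at most 2 implied reads per library, so the size of their difference is poorly bounded.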

Other observations

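Clock genes formed a group that the lists did not hold. The circadian clock is a loop of transcription factors whose members peak at set times of day, and 27 of its genes were listed after their values had been seen. Of these 6 were called higher in 3n *adm-2* and 0 lower, beside 2.24% over all genes, and 11 had an adjusted p under 0.05, each with a positive difference. The clock-regulated RNA-binding protein gene *GRP7* (AT2G21660) had 1039 and 960 RPKM in 3n *adm-2*, against 468 and 384 RPKM in 3n, a difference of 1.24 (SE 0.15, adjusted p = 0.00405). *FKF1*, a blue light receptor of the flowering pathway, had 8.73 and 8.45 RPKM, against 2.98 and 2.25 RPKM in 3n (1.69, SE 0.25, adjusted p = 0.00757), and *PRR5*, a clock repressor, had 5.25 and 5.57 RPKM, against 2.46 and 1.18 RPKM in 3n (1.6, SE 0.38, adjusted p = 0.0384). *COR27*, *COR28* and *JMJD5* rose by 1.28, 1.0 and 1.11, and of the 6 only *COR27* kept its call without each library. *TOC1*, a central clock gene of the evening, had 39.99 and 40.19 RPKM, against 31.1 and 28.7 RPKM in 3n (0.42, adjusted p = 0.00765). The morning genes *CCA1* and *LHY* did not follow. *CCA1* had 8.16 and 8.81 RPKM, against 8.42 and 11.5 RPKM in 3n (-0.21, adjusted p = 0.612). *LHY* had 6.68 and 6.70 RPKM, against 9.19 and 16.1 RPKM in 3n (-0.85, adjusted p = 0.116). Other clock genes went both ways, with *PRR7* at 0.47 (adjusted p = 0.0498) and *PRR9* at -0.35 (adjusted p = 0.407). Of the 27 differences 19 were positive and 8 negative, so the list gives no clean split by time of day. Against 3n *suvh7-1*, *FKF1* was higher by 1.54 (adjusted p = 0.0129) and *JMJD5* by 1.32 (adjusted p = 0.0109). In 3n, 2n, 3n *suvh7-1* and 3n *peg2*, *LHY* was higher in replicate 2 than in replicate 1 (9.19 and 15.8 RPKM in 3n *suvh7-1*). *PRR5* was lower in replicate 2 in these groups (3.19 and 1.79 RPKM in 3n *suvh7-1*). The 3n *adm-2* replicates lay close together in both genes, and the cause of this order was not tested. The time of day of harvest is not given in the sources used here, so it cannot be told apart from genotype.

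The evening element, AAAATATCT searched on both strands, occurred in the 250 bases before 4 of the 6 clock genes called higher and before 8 of the 27, beside 466 of 18387 genes (2.53%). Among genes called higher it occurred in 22 of 414 (5.31%) and among those called lower in 2 of 108 (1.85%). The window of *GRP7*, RefSeq TAIR10.1, is shown with its 3 matches in capitals.
GRP7, chr2:9266558-9266807, - strand: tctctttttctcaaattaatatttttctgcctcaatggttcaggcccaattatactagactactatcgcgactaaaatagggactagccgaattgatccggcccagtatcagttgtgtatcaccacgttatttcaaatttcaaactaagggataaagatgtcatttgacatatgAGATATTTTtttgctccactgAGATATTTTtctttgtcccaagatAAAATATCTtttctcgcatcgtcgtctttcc
A match is a description of the letters, and binding was not measured.

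A further set chosen after values were seen lies at loci AT2G07 on chromosome 2, many of them copies of mitochondrial genes. Of 54 such genes measured 12 were called higher and 0 lower, beside 2.24% and 0.585% over all genes, with a median difference of 0.73. AT2G07708 had 10.3 and 10.8 RPKM in 3n *adm-2*, against 4.27 and 5.01 RPKM in 3n (1.17, adjusted p = 0.0188), and the set summed to 459 and 490 RPKM, against 394 and 355 RPKM in 3n. None of the 146 genes of the mitochondrial genome itself averaged 1 RPKM or more over these 4 libraries. At most 1 alignment per read was kept, so reads of mitochondrial transcripts and of the nuclear copies cannot be told apart.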
